A study of Mus musculus with 4 samples.

Results

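The genes described here are 38 markers of hair follicle stem cells and genes of the Notch, Wnt and Hedgehog pathways, measured in mouse dorsal skin after a topical compound. They were taken by symbol from a count table of 56953 genes and all 38 were found, 18 of them follicle stem cell and isthmus markers, 10 Notch genes, 7 Wnt genes and 3 Hedgehog genes. Skin came from wild type C57BL/6J mice. One group received DMSO, the solvent, and the other NEDD8i at 10 µM, a compound known here by that label alone, for 3 days in both groups. Each group had 2 libraries, and the labels do not say whether these came from separate mice, so the p-values cover only the spread of the libraries at hand, possibly a technical one. The labels give full-thickness skin in 1 place and cells in another, and age and sex are not given in the sources used here.

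The follicle keeps its stem cells in a niche called the bulge, below the isthmus and the opening of the sebaceous gland. Wnt signalling, acting through β-catenin and the TCF and LEF factors, is known to start hair growth. Hedgehog signalling from the growing follicle is read out by Gli1 and Ptch1, which are both targets and parts of the pathway. Notch signalling passes between touching cells and steers keratinocytes into spinous and follicular fates. The ubiquitin-like protein NEDD8 switches on cullin-RING ubiquitin ligases, a class of enzymes known to turn over proteins of each of these pathways.

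By the quasi-likelihood test of edgeR, adjusted by the Benjamini-Hochberg method over all 11388 tested genes, 1 of the 31 tested members passed an adjusted p of 0.05. That gene was Tnfrsf19, a receptor gene, which was 4.19-fold lower with NEDD8i. The number of members that rose was 0. Of all tested genes, 0.782% were called, 0.114% lower and 0.667% higher. At an unadjusted p under 0.05 there were 4 members lower and 2 higher, against 7.86% and 8.62% of all tested genes in those directions. Many of the other members were highest in 1 library, DMSO replicate 1, in which hair genes were abundant. Without that library 10.4% of all genes were called, 5.62% higher and 4.81% lower, and the called members were Tnfrsf19 and Lgr6 (lower) and Nrarp (higher). That fit holds 1 DMSO library, which is assumed to vary as the NEDD8i libraries do.

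Library depth was 5639791 to 8856572 counts, of which 52.6% to 61.7% fell on 3 ribosomal RNA genes. Levels are given as CPM, counts scaled to library sizes adjusted by TMM factors, and differences as log2FC, the log2 fold change of NEDD8i relative to DMSO. The reads mark transcript 3′ ends. Levels are compared between libraries and not between genes. DMSO replicate 1 stood apart in hair content. The 18 hair shaft and inner root sheath markers counted took 1.78% of its reads outside ribosomal RNA, while DMSO replicate 2 had 0.0114%, NEDD8i replicate 1 0.00824% and NEDD8i replicate 2 0.115%. Melanocyte markers, 6 genes, took 0.0892% there and 0.0132% to 0.0151% elsewhere. Basal keratinocyte markers, 8 genes, took 0.81% in DMSO replicate 1 and 1.16% to 1.55% in the others. Dermal markers were scarce for a full-thickness label. The 7 fibroblast markers summed to 388 to 1159 reads per library, of which Col1a1 had 15, 10, 24 and 119 in library order. The 9 endothelial markers summed to 12, 3, 25 and 26 reads. Library order here and below is DMSO 1, DMSO 2, NEDD8i 1, NEDD8i 2. In bulk tissue, fewer cells of a type and less RNA per cell cannot be told apart. The part of hair content in the differences below was not tested, and values without DMSO replicate 1 are given for the genes named with a test. Among the 3 libraries then left, NEDD8i replicate 2 has the most hair marker reads.

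Promoter sequences are shown for Tnfrsf19, the gene that fell, for Lgr6, the member with the next smallest p among those lower, and for Nrarp, a Notch target with higher values with NEDD8i. They are the 250 bases before each RefSeq start site on GRCm38.p6, 5′ to 3′ on the gene's strand, and Tnfrsf19 has 2 start sites. Capitals mark a match, on either strand, to the RBPJ core TGGGAA of Notch signalling, the TCF/LEF core CTTTGA of Wnt signalling or the GLI core ACCACCC of Hedgehog signalling.
Tnfrsf19 start site A, chr14:61037988-61038237, minus strand: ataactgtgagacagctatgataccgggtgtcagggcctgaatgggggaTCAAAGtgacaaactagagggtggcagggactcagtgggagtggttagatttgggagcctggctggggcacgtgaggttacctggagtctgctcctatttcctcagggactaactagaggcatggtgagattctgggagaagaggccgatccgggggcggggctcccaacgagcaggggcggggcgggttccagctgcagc
Tnfrsf19 start site B, chr14:61046856-61047105, minus strand: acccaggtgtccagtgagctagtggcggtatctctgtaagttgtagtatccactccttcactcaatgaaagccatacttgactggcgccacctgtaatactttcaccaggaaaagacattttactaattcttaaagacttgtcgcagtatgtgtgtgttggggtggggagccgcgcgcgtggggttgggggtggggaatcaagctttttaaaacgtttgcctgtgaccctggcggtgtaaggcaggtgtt
Lgr6, chr1:135105277-135105526, minus strand: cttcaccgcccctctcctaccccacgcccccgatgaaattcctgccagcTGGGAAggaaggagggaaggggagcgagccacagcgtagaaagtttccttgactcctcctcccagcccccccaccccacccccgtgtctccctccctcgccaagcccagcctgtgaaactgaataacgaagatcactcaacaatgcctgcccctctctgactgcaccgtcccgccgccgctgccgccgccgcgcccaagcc
Nrarp, chr2:25180508-25180757, plus strand: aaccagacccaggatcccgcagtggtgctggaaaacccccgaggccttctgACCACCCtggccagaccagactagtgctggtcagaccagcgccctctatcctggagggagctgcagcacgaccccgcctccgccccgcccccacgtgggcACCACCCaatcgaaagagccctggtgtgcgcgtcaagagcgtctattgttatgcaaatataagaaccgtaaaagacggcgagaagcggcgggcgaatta

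The upstream start site of Tnfrsf19 had no match to the 3 cores, and the other held 1 TCF/LEF core on the opposite strand, 201 bases before the start. The Lgr6 promoter held 1 RBPJ core and that of Nrarp 2 GLI cores. The promoter table covered 29 members outside chromosome 18 with 35 start sites; it had no entry for Lgr5, Sox9, Cdh3, Hes1, Hey1, Heyl, Notum and Gli1. An RBPJ core was in 20.0% of these 35 promoters, against 21.6% of 32851 mouse promoters cut to the same length. The TCF/LEF core was in 11.4% against 13.8%, and the GLI core in 5.71% against 3.92%. The 3 cores do not overlap one another in the promoters shown, and a match is a stretch of letters and not a measured binding site.

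Of the 37 members with any read, 23 had their highest CPM in DMSO replicate 1, 6 in the other DMSO library, and 2 and 6 in NEDD8i replicates 1 and 2. Among the 31 tested members the share highest in DMSO replicate 1 was 54.8%, against 25.5% of all tested genes. The read filter asked for a level near 10 counts in at least 2 libraries, and it removed 7 members. All 6 of the removed members with reads were highest in DMSO replicate 1. The tested members thus leave out some, but not all, of those that depend on that library. In all, 11 members were at least 2 times higher in DMSO replicate 1 than in every other library: Lhx2, Hey2, Heyl, Lef1, Nkd1, Sp5, Notum, Wif1, Ptch1, Gli1 and Hhip. Those 11 include 5 of the 7 Wnt genes, all 3 Hedgehog genes and 1 of the 18 follicle stem cell genes. Of them 5 were among the 31 tested members, and 3.29% of all tested genes had this pattern.

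**Figure D1:**
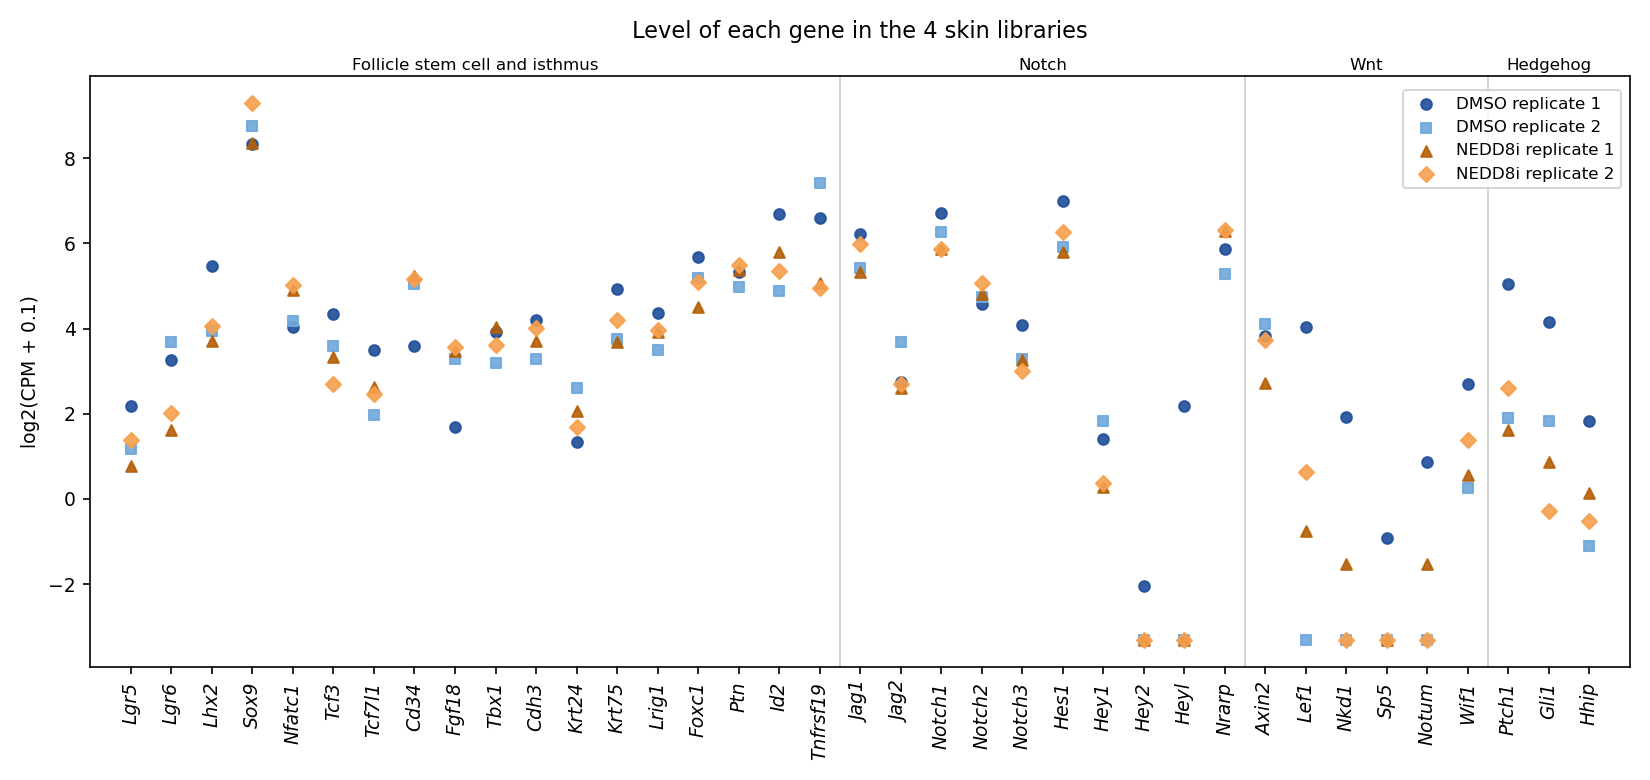
Level of the 37 genes with any read, as log2 of CPM plus 0.1, in DMSO replicates 1 and 2 (dark and light blue) and NEDD8i replicates 1 and 2 (dark and light orange). Tnfrsf19 and Lgr6 have both orange points under both blue points, while Lef1, Heyl, Nkd1, Ptch1 and Hhip have 1 high point, DMSO replicate 1.

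Tnfrsf19, also called Troy, encodes a receptor of the TNF receptor superfamily made in the follicle and in other stem cell compartments. It lies on chromosome 14, 61201324 to 61283939, minus strand (ENSMUSG00000060548.14; deposited coordinates, taken to be GRCm39). In DMSO, replicate 1 had 678 counts and replicate 2 had 948, while with NEDD8i they had 268 and 256. In CPM these were 96.9 and 172 against 33.3 and 30.8. Both NEDD8i libraries were below both DMSO libraries, and the 2 NEDD8i values were close together. The mean went from 134 ± 52.9 to 32.0 ± 1.79 CPM (SD, n = 2 libraries each), a log2FC of -2.07 (SE 0.35, edgeR adjusted p = 0.0377). DMSO replicate 1, the hair-rich library, had the lower DMSO value, and without it the log2FC was -2.43. The call held with DESeq2 (adjusted p = 8.7e-06) and with no read filter (edgeR adjusted p = 1.8e-06). It also held with the replicate number as a block (edgeR adjusted p = 0.0215) and without TMM (edgeR adjusted p = 0.0276). It was lost with limma-voom (adjusted p = 0.0805) and without edgeR's robust option (adjusted p = 0.0738). The call was also lost without NEDD8i replicate 1 or NEDD8i replicate 2. In those fits the log2FC was -2.11 and -2.03, near that of all 4 libraries, while the SE was larger, at 0.62 and 0.61.

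Lgr6, a receptor for R-spondins that marks stem cells of the isthmus, came next among the lower follicle genes. It lies on chromosome 1, 134911039 to 135033014, minus strand, in the same coordinates. Its counts were 67 and 70 in DMSO and 24 and 33 with NEDD8i, so the groups did not overlap. Its CPM were 9.58 and 12.7 against 2.98 and 3.96, a log2FC of -1.67 (SE 0.42) that missed the threshold (edgeR adjusted p = 0.109). As with Tnfrsf19, DMSO replicate 1 was the lower of the DMSO libraries, and the log2FC without it was -1.87, which passed (edgeR adjusted p = 0.00257). It also passed with no read filter (edgeR adjusted p = 0.034), but not with DESeq2 (adjusted p = 0.0629) or limma-voom (adjusted p = 0.149). Lgr5, the related receptor of bulge and hair germ cells, had 31, 12, 13 and 21 counts in the order DMSO 1, DMSO 2, NEDD8i 1 and NEDD8i 2. Its groups overlapped, and its log2FC moved from -0.68 to -0.08 without DMSO replicate 1.

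Nfatc1, the transcription factor that holds bulge cells in quiescence, had higher values with NEDD8i. Its counts were 114 and 100 in DMSO and 242 and 269 with NEDD8i, or 16.3 and 18.1 against 30.1 and 32.3 CPM. The groups did not overlap and replicates were close, but the log2FC of 0.86 (SE 0.30) did not pass (edgeR adjusted p = 0.197). Without DMSO replicate 1 it was 0.77. The symbol Tcf3 belongs in this table to the E-box factor E2A, whereas the bulge Wnt factor once called Tcf3 is listed as Tcf7l1. Tcf3 had 141, 66, 81 and 53 counts, or 20.2 and 12.0 CPM in DMSO and 10.1 and 6.37 CPM with NEDD8i, a log2FC of -0.97 (SE 0.42, edgeR adjusted p = 0.291). The Tcf3 log2FC was -0.55 without DMSO replicate 1 and, leaving out DMSO replicate 2 instead, -1.28, where it passed (edgeR adjusted p = 0.0181). Tcf7l1 had 11.3, 3.80, 6.08 and 5.41 CPM in library order, with only DMSO replicate 1 apart.

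The bulge regulators Lhx2 and Sox9 differed in pattern. Lhx2, a LIM homeobox factor, had 44.6 CPM in DMSO replicate 1 and at most 16.6 CPM in the other 3 libraries, so DMSO replicate 2 lay within the NEDD8i range. Its log2FC of -1.02 became -0.05 without DMSO replicate 1. Sox9, needed to specify bulge cells, had by far the most reads of the set, 2251 and 2381 in DMSO and 2643 and 5268 with NEDD8i. Its highest value came from NEDD8i replicate 2 alone, and NEDD8i replicate 1, at 328 CPM, lay between the DMSO libraries at 322 and 431 CPM.

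Cd34 and Fgf18 were low in DMSO replicate 1 instead. Cd34, the surface marker used to sort mouse bulge cells, had 12.0 CPM there, 33.0 CPM in DMSO replicate 2 and 37.5 and 35.6 CPM with NEDD8i. Endothelium and some dermal cells also carry Cd34. The 9 endothelial markers summed to 12, 3, 25 and 26 reads in library order, of which Cdh5 had 0 in every library and Pecam1 had 1, 1, 0 and 6. Of the 9, 8 had any read and 0 were tested with all 4 libraries. Without DMSO replicate 1, 1 marker was tested, with at most 3 reads in DMSO replicate 2. It met the read filter through its NEDD8i reads. Its log2FC of 5.77 thus follows from the filter and gives no support. The 7 fibroblast markers summed to 79.9, 70.3, 89.2 and 139 CPM. Of the 5 tested, 0 passed by edgeR, and the list median log2FC was 2.11. For 3, Col1a1, Col1a2 and Col3a1, both NEDD8i libraries were above both DMSO libraries, a pattern found in 25% of all tested genes. Without DMSO replicate 1 the read filter can be met in 1 library, and 6 were then tested. Their median log2FC was 2.87, beside 0.06 for all genes tested in that fit. Since the genes tested differ from those with all 4 libraries, 2.87 is not set against 2.11 and gives no support. The part of these cells in the Cd34 values was not tested. Fgf18, a growth factor of the resting bulge, was also lowest in DMSO replicate 1, with 3.14, 9.60, 10.9 and 11.8 CPM. Both NEDD8i values were above both DMSO values for each gene, yet DMSO replicate 2 was much nearer to the NEDD8i libraries than to DMSO replicate 1. Without DMSO replicate 1 their log2FC values went from 0.71 to 0.14 and from 0.85 to 0.23.

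Other niche genes had DMSO libraries that differed from each other. Lrig1, the marker of upper isthmus stem cells and a brake on EGF receptor signalling, had 20.6 and 11.2 CPM in DMSO and 15.2 and 15.5 CPM with NEDD8i. Its log2FC of -0.06 (SE 0.38) was 0.44 without DMSO replicate 1 and, leaving out DMSO replicate 2 instead, -0.41. The hair germ cadherin Cdh3 had 18.4 and 9.60 against 12.9 and 16.1 CPM, and its log2FC of 0.04 (SE 0.40) was 0.59 and -0.33 in those fits. For both genes the NEDD8i values lay between the DMSO values. The heparin-binding growth factor Ptn had 40.3 and 31.3 CPM in DMSO and 41.5 and 45.3 CPM with NEDD8i. Tbx1, a bulge T-box factor, had 15.1, 9.06, 16.3 and 12.3 CPM. Foxc1, another quiescence factor, had 51.0 and 36.4 CPM in DMSO and 22.5 and 33.9 CPM with NEDD8i, which did not overlap (log2FC -0.63, edgeR adjusted p = 0.391, and log2FC -0.38 without DMSO replicate 1). The inhibitor of differentiation Id2 had 103 CPM in DMSO replicate 1, 29.5 in DMSO replicate 2 and 55.5 and 41.1 with NEDD8i. The companion layer keratin Krt75 had 30.2, 13.4, 12.7 and 18.3 CPM, and the bulge keratin Krt24 had 17, 33, 33 and 26 counts.

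Over the 18 follicle stem cell genes, all of them tested, 1 fell, 0 rose and 17 did not pass. Their median log2FC was -0.30, beside 0.00 for all tested genes, and 0.17 without DMSO replicate 1. As a share of reads outside ribosomal RNA they summed to 0.203% and 0.207% in DMSO and 0.144% and 0.237% with NEDD8i, with Sox9 the largest contributor in each library.

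**Figure D2:**
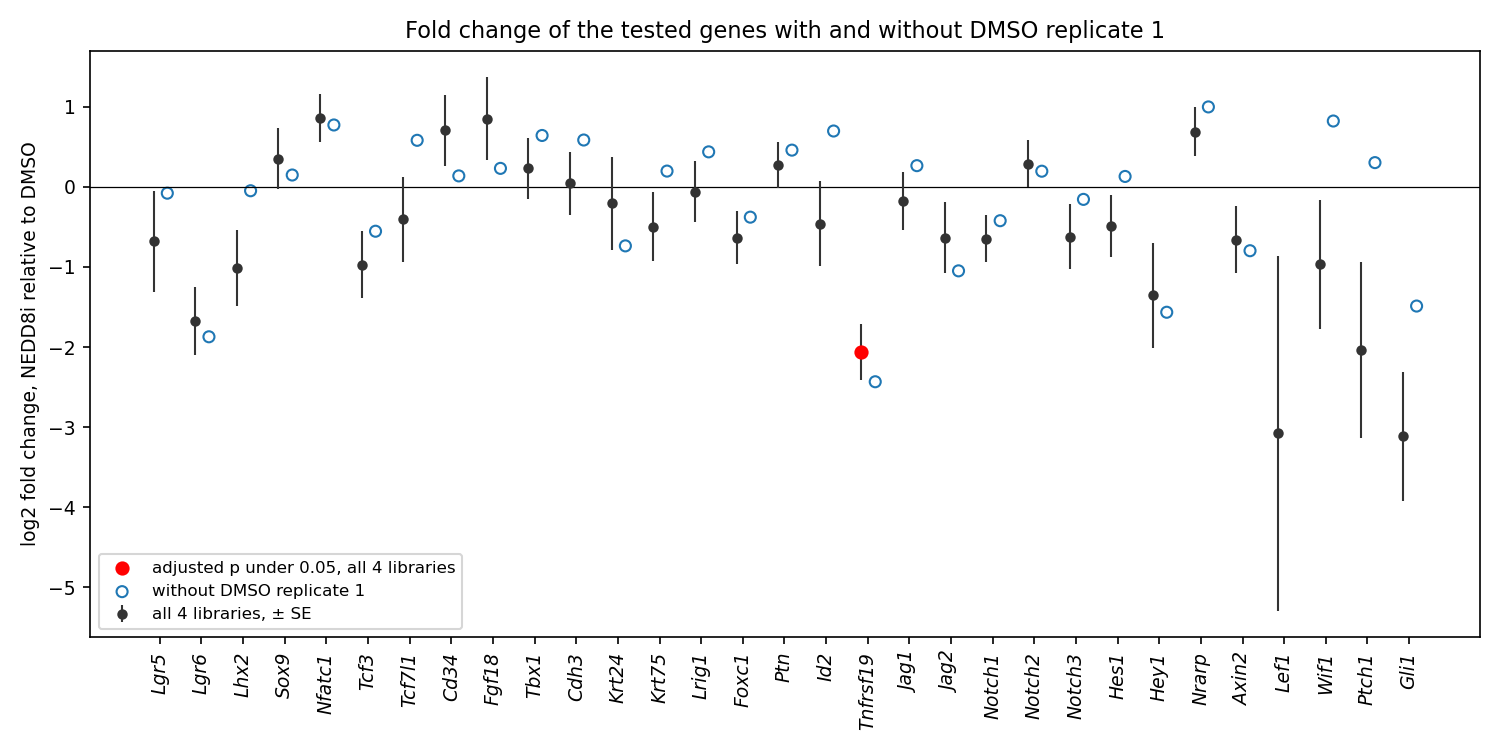
Log2 fold change of each of the 31 tested genes, NEDD8i relative to DMSO, from all 4 libraries (filled, bar 1 SE each way) and from the fit without DMSO replicate 1 (open blue, no error drawn). Tnfrsf19 is the only red point, the only one past an adjusted p of 0.05; open points of Ptch1, Wif1 and Id2 lie on the other side of 0, and the open point of Lef1 is not drawn because DMSO replicate 2 had no Lef1 read.

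Among the Notch ligands, Jag1 had 521, 237, 324 and 529 counts in library order, or 74.5 and 42.9 CPM in DMSO and 40.2 and 63.6 CPM with NEDD8i. Its groups overlapped (log2FC -0.18, SE 0.36, edgeR adjusted p = 0.86), and the log2FC without DMSO replicate 1 was 0.27. Jag2, with 46, 70, 48 and 53 counts, had 6.57 and 12.7 against 5.96 and 6.37 CPM, and its log2FC was -0.63 (SE 0.44, edgeR adjusted p = 0.532). It was -1.05 without DMSO replicate 1 and, leaving out DMSO replicate 2 instead, -0.07. The low Jag2 values of NEDD8i lay just under DMSO replicate 1.

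The receptor Notch1, which drives spinous differentiation of keratinocytes, had 733 and 427 counts (105 and 77.3 CPM) in DMSO and 470 and 482 counts (58.4 and 57.9 CPM) with NEDD8i. Both NEDD8i values were below both DMSO values, and the log2FC of -0.65 (SE 0.29) did not pass (edgeR adjusted p = 0.311). Without DMSO replicate 1 it was -0.42. Notch3, a receptor of mural cells and suprabasal keratinocytes, had 119, 53, 76 and 66 counts, or 17.0 and 9.60 against 9.44 and 7.93 CPM. Its NEDD8i values were close to DMSO replicate 2, and its log2FC went from -0.62 (SE 0.40, edgeR adjusted p = 0.499) to -0.16 without DMSO replicate 1. The 8 pericyte and smooth muscle markers summed to 82, 33, 32 and 25 reads, with the defining Rgs5 at 1, 0, 2 and 1 and Acta2 at 4, 0, 2 and 0. Only 1 of the 8 had enough reads to test. It had a log2FC of -1.73, with both NEDD8i libraries below both DMSO libraries, and did not pass the adjusted p. The part of these cells in the Notch3 values was not tested. Notch2, with 167, 148, 227 and 280 counts, had 23.9 and 26.8 CPM in DMSO and 28.2 and 33.6 CPM with NEDD8i, without overlap (log2FC 0.29, SE 0.29, edgeR adjusted p = 0.686), and its log2FC without DMSO replicate 1 was 0.20. A predicted gene on the same strand inside Notch2 was counted separately, with 20, 22, 47 and 114 reads, and the sources used here do not give how shared reads were assigned.

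Of the 5 Notch targets 3 were tested, and none passed with all 4 libraries. Nrarp, a target that feeds back to limit Notch activity, had 409 and 216 counts in DMSO and 627 and 663 with NEDD8i. In CPM these were 58.5 and 39.1 against 77.9 and 79.7, with no overlap, and the log2FC was 0.69 (SE 0.30, edgeR adjusted p = 0.30). Without DMSO replicate 1 its edgeR adjusted p was 0.0359, in the fit that called 5.62% of all genes higher. Hes1, the best known Notch target and a repressor, had 886 and 333 counts (127 and 60.3 CPM) in DMSO and 447 and 644 counts (55.5 and 77.4 CPM) with NEDD8i. Its groups overlapped, and its log2FC went from -0.49 (SE 0.39, edgeR adjusted p = 0.587) to 0.13 without DMSO replicate 1. Hey1, a related repressor, had 18 and 19 counts in DMSO and 9 and 10 with NEDD8i, a log2FC of -1.36 (SE 0.65, edgeR adjusted p = 0.351) and of -1.57 without DMSO replicate 1. Heyl had 31 reads in DMSO replicate 1 and 0 in the other 3 libraries, and Hey2 had 1 read there and 0 in the others. Of the 8 tested Notch genes 0 passed in either direction, 2 were at a positive log2FC, and the median of -0.56 went to -0.01 without DMSO replicate 1.

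Wider Notch genes comprised 30 further ligands, enzymes and cofactors, of which 23 were tested and 0 passed. The median log2FC was -0.09, and 1 was higher and 2 lower at an unadjusted p under 0.05, against 8.62% and 7.86% of all tested genes. Maml3, a coactivator of the Notch transcription complex, had the smallest p, with 210 and 270 counts in DMSO and 105 and 150 with NEDD8i. Its log2FC was -1.34 (SE 0.35, edgeR adjusted p = 0.12). It passed with no read filter (edgeR adjusted p = 0.0107), with the replicate block (edgeR adjusted p = 0.042) and with DESeq2 (adjusted p = 0.039). It did not pass with limma-voom (adjusted p = 0.164), without the robust option (edgeR adjusted p = 0.154) or without TMM (edgeR adjusted p = 0.0911). Without DMSO replicate 1 the Maml3 log2FC was -1.66. Rfng, a glycosyltransferase that tunes Notch to its ligands, had 85 and 116 against 229 and 286 counts (log2FC 0.92, edgeR adjusted p = 0.238). Its log2FC was 0.57 without DMSO replicate 1 and, leaving out DMSO replicate 2 instead, 1.39, where it passed (edgeR adjusted p = 0.00561). Rbpj, the DNA-binding partner of Notch, had a log2FC of 0.07. Hes5 had 17 reads in DMSO replicate 1 and 0 elsewhere, as Heyl did.

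Among the Wnt targets, Axin2, a scaffold of the β-catenin destruction complex and a feedback target, was the 1 gene not highest in DMSO replicate 1. It had 99, 94, 52 and 110 counts, or 14.1 and 17.0 CPM in DMSO and 6.46 and 13.2 CPM with NEDD8i, a log2FC of -0.66 (SE 0.42, edgeR adjusted p = 0.488) and of -0.80 without DMSO replicate 1. NEDD8i replicate 2 was close to the DMSO libraries and NEDD8i replicate 1 was lower. Lef1, the Wnt transcription factor of hair matrix and precortex cells, had 115 reads in DMSO replicate 1, 0 in DMSO replicate 2 and 4 and 12 with NEDD8i. The fitted log2FC of -3.08 (SE 2.21, edgeR adjusted p = 0.607) therefore rested on 1 library, without which DMSO had no Lef1 read. Nkd1, a feedback inhibitor, had 26, 0, 2 and 0 reads, and Notum, a secreted enzyme that inactivates Wnt proteins, 12, 0, 2 and 0. The target Sp5 had 3 reads in DMSO replicate 1 and 0 elsewhere.

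Of the secreted inhibitors, Wif1, which binds Wnt proteins, had 45 reads in DMSO replicate 1, 6 in DMSO replicate 2 and 11 and 21 with NEDD8i. Its log2FC went from -0.97 (SE 0.81, edgeR adjusted p = 0.614) to 0.82 without DMSO replicate 1. Dkk1, which blocks the Wnt coreceptors, had 0 reads in all 4 libraries, which allows up to 0.36 to 0.543 CPM per library at a floor of 3 counts. Together the 7 Wnt genes made up 0.0106% of DMSO replicate 1 outside ribosomal RNA and 0.00194% to 0.00437% of the others. Dermal papilla markers, 7 genes, also had most reads in DMSO replicate 1, with 68 against 6, 11 and 33. Their part in the Wnt values was not tested.

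The wider Wnt list held 58 further genes, of which 43 were tested and 0 passed, with 7 lower and 2 higher at an unadjusted p under 0.05. Of all tested genes 7.86% were lower and 8.62% higher by that rule. The median log2FC was -0.33, and -0.04 over the 45 genes tested without DMSO replicate 1. Wnt5a, a ligand of mostly β-catenin-independent signalling, came nearest to the threshold. It had 212 and 54 counts in DMSO and 29 and 23 with NEDD8i, or 30.3 and 9.78 against 3.60 and 2.76 CPM. DMSO replicate 1 was highest, but DMSO replicate 2 was also well above both NEDD8i libraries. The log2FC was -2.66 (SE 0.56, edgeR adjusted p = 0.0703). It passed with no read filter (edgeR adjusted p = 9.3e-07), with the replicate block (edgeR adjusted p = 0.0279) and with DESeq2 (adjusted p = 0.000735). It did not pass with limma-voom (adjusted p = 0.162), without the robust option (edgeR adjusted p = 0.107) or without TMM (edgeR adjusted p = 0.0767). The Wnt5a log2FC was -1.63 without DMSO replicate 1 and -3.23 without DMSO replicate 2. Znrf3, a ubiquitin ligase that removes Wnt receptors and is itself a Wnt target, had 95 and 67 counts against 44 and 50. Its log2FC was -1.16 (SE 0.37, edgeR adjusted p = 0.173) and -1.09 without DMSO replicate 1, and it passed without DMSO replicate 2 (edgeR adjusted p = 0.0491). Ctnnb1, encoding β-catenin itself, had a log2FC of 0.48 with 3112, 1374, 3649 and 4278 counts, and 0.95 without DMSO replicate 1.

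**Figure D3:**
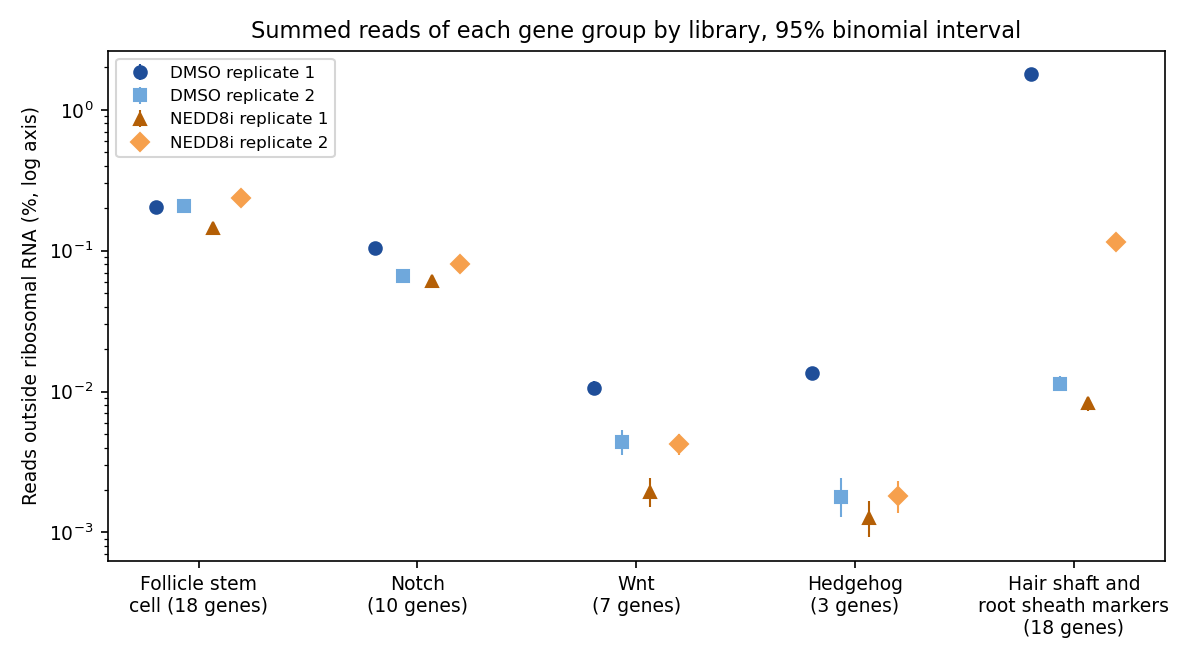
Share of reads outside ribosomal RNA, on a log axis, taken by the follicle stem cell, Notch, Wnt and Hedgehog genes and by hair shaft and inner root sheath markers in each library, with exact 95% binomial intervals that cover counting error only. The Wnt and Hedgehog shares are highest in DMSO replicate 1, as the hair shaft share is, and so is the Notch share, at 0.104% against 0.061% to 0.0807%, while the follicle stem cell share is not.

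The 3 Hedgehog genes were far more abundant in DMSO replicate 1. Together they took 0.0135% of its reads outside ribosomal RNA (exact 95% binomial interval 0.0122 to 0.0149), against 0.00179%, 0.00126% and 0.0018% in DMSO replicate 2 and NEDD8i replicates 1 and 2. The intervals of the last 3 shares overlapped. Ptch1, the Hedgehog receptor and a target, had 232 reads in DMSO replicate 1, 20 in DMSO replicate 2 and 24 and 50 with NEDD8i. Its log2FC of -2.04 (SE 1.10, edgeR adjusted p = 0.461) became 0.30 without DMSO replicate 1, when NEDD8i replicate 2 held the most reads of the 3 libraries. Hhip, a decoy that binds the ligand, had 24, 2, 8 and 5 reads and was too low to test.

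Gli1, the transcription factor used as a readout of the pathway, differed from Ptch1 in 1 respect. It lies on chromosome 10, 127165751 to 127177843, minus strand, in the deposited coordinates. Its counts were 125 and 19 in DMSO and 14 and 6 with NEDD8i, so that both NEDD8i libraries, at 1.74 and 0.721 CPM, were below DMSO replicate 2 at 3.44 CPM as well as DMSO replicate 1 at 17.9 CPM. The log2FC was -3.11 (SE 0.81, edgeR adjusted p = 0.117), and -1.49 without DMSO replicate 1 (edgeR adjusted p = 0.364). It passed with DESeq2 (adjusted p = 0.00539), with no read filter (edgeR adjusted p = 1.4e-05) and with the replicate block (edgeR adjusted p = 0.0347). It did not pass with limma-voom (adjusted p = 0.29), without the robust option (edgeR adjusted p = 0.157) or without TMM (edgeR adjusted p = 0.122). Without DMSO replicate 2 the Gli1 log2FC was -3.83. Arhgap9, which overlaps Gli1 on the opposite strand, had 39, 35, 28 and 32 reads, and the sources used here do not give whether counting used strand.

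The wider Hedgehog list had 16 genes, of which 9 were tested and 0 passed. All 9 had a negative log2FC, with a median of -1.07 (-0.45 and 7 of 9 without DMSO replicate 1), and 4 were lower at an unadjusted p under 0.05. Of the 11388 tested genes 5709 had a negative log2FC, and 7.86% were lower by that rule. Both NEDD8i libraries were below both DMSO libraries for 6 of the 9: Smo, Boc, Cdon, Gas1, Kif7 and Spop. Across all tested genes that pattern was found in 22.9%. Cdon, a coreceptor, had 26 and 24 counts in DMSO and 9 and 5 with NEDD8i, a log2FC of -2.21 (SE 0.66, edgeR adjusted p = 0.149). Gas1, another coreceptor, had 243 and 172 against 135 and 145 counts, a log2FC of -0.95 (SE 0.29, edgeR adjusted p = 0.164), which passed without DMSO replicate 2 (edgeR adjusted p = 0.0441). Smo, the membrane protein that carries the signal inward, had 37 and 33 against 14 and 18 counts (log2FC -1.52, edgeR adjusted p = 0.192). For these 3 genes the DMSO libraries were close in CPM, and without DMSO replicate 1 their log2FC values were -2.33, -0.88 and -1.62. The ligand Shh had 32 reads in DMSO replicate 1 and 0 in the other 3 libraries. Of the genes outside the 38, Smo, Shh, Hes5, Rbpj and Ctnnb1 were chosen after their values were seen.

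**Figure D4:**
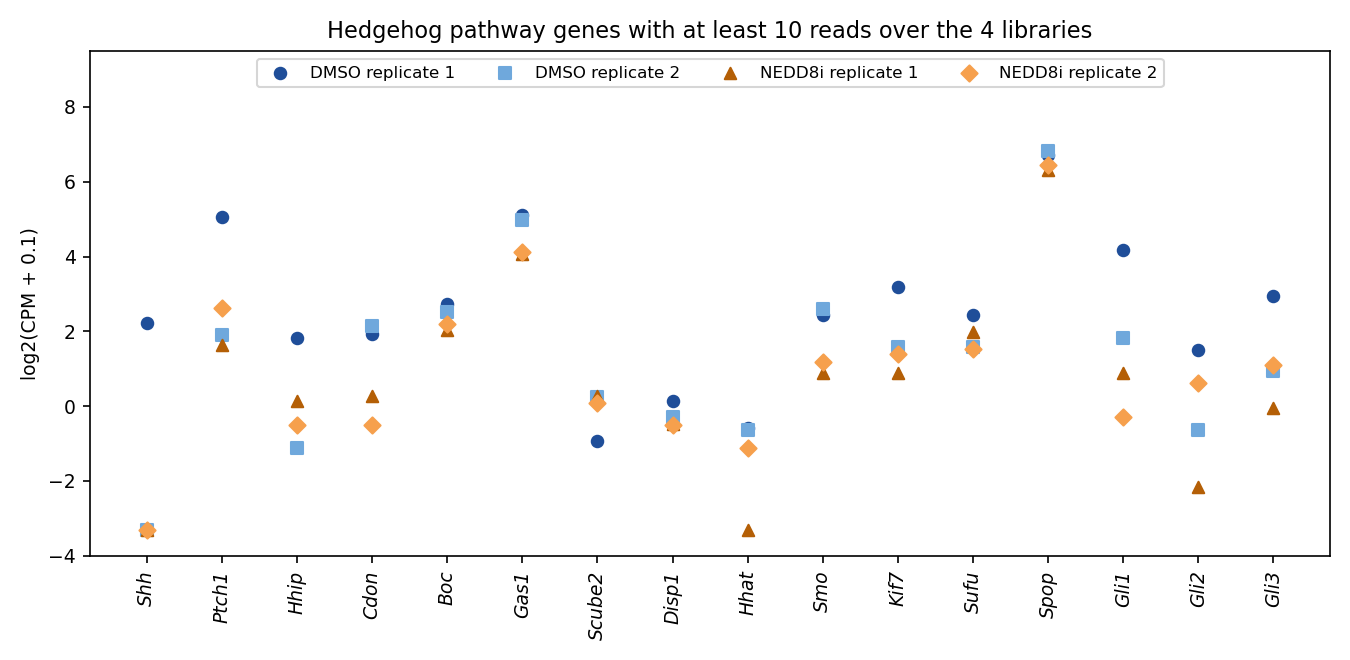
Level of 16 Hedgehog pathway genes with at least 10 reads in all, as log2 of CPM plus 0.1, for each of the 4 libraries. Shh, Ptch1 and Hhip are high in DMSO replicate 1 alone, whereas Cdon, Gas1 and Smo have both blue DMSO points together above both orange NEDD8i points.

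Read across all 31 tested members, 10 had both NEDD8i libraries below both DMSO libraries (32.3%), 6 had both above (19.4%) and 15 overlapped. The same patterns were found in 22.9% and 25% of all tested genes. The median log2FC was -0.50, with 22 negative and 9 positive values. Without DMSO replicate 1 the median was 0.15, 9 members went from negative to positive, 13 stayed negative and 9 stayed positive. The NEDD8i mean was under 0.5 times each DMSO library, taken singly, for 4 members, Lgr6, Tnfrsf19, Hey1 and Gli1, and above 2 times each for none. Among other settings the share of all genes called was 3.64% with DESeq2, 0.237% with limma-voom, 2.97% with no read filter, 0.421% without the robust option and 0.413% without TMM, and the members called numbered 2, 0, 4, 0 and 1. It was 2.5% with the replicate number as a block and 4.24% with the numbers crossed between groups, with 2 members called in each. Without DMSO replicate 2 it was 10.7% with 11 members called: Cd34 and Fgf18 higher, and Lhx2, Tcf3, Id2, Tnfrsf19, Heyl, Lef1, Nkd1, Ptch1 and Gli1 lower. That fit sets NEDD8i against the hair-rich library alone and tested 34 members. Heyl and Nkd1, which the read filter removed with all 4 libraries, entered it through their reads in that library. Their calls thus follow from the filter and give no support. Without NEDD8i replicate 1 or 2 the share was 0.368% and 0.387%, with 0 members called.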

How the data were processed

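Per the labels' protocols, RNA from skin of 2 DMSO and 2 NEDD8i samples was made into QuantSeq FWD libraries, which read the 3′ end of transcripts. The raw counts, as the authors deposited them, form 1 table of genes in the featureCounts layout, per the file headers. The submitters' processing notes list STAR, featureCounts and DESeq2 without versions, roles or settings, and list both GRCm38 and GRCm39. A comparison with GENCODE M21 (GRCm38) found the same gene start for 2.7% of 52029 matched genes, so deposited coordinates are taken to be GRCm39. The sources used here do not say that molecular identifiers were used, so intervals and floors (3 counts) cover counting error only. All 4 sample columns were used.

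Counts were tested in R 4.3.3 with edgeR 4.0.16: filterByExpr (minimum count 10, minimum total 15), TMM, the robust quasi-likelihood F test on group alone, and Benjamini-Hochberg adjustment over all tested genes at 0.05. The standard error is the log2 fold change divided by the root of F. The steps were tested on simulated data with 200 changed genes. Alternatives used limma 3.58.1 (voom), DESeq2 1.42.0, other scalings and filters, the replicate block and each library left out.

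The members, lists and alternatives were chosen with earlier results of these data known. Full values went to members past the threshold and up to 4 per role group by smallest p, and to the same or up to 2 genes of each wider list; other members are given by level. Cell type marker lists, 8 in all, were summed per library. One gene of the wider lists is not reported here. Sebaceous markers took 0.0462% to 0.08% of reads outside ribosomal RNA, fibroblast markers 0.017% to 0.0343% and pericyte markers 0.00074% to 0.0029%.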

Additional observations from a re-analysis of the deposited data

How the results depend on the processing

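With 2 libraries a group, a biological coefficient of variation of 34.6% and a median SE of 0.42 on the log2 scale limit the precision. All genes called numbered 89, and members called 1. DESeq2 called 414 genes and 2 members, limma-voom 27 and 0, no filter 703 and 4, no robust option 48 and 0, and library sizes without TMM 47 and 1. With the replicate block 285 genes and 2 members were called. The shared replicate numbers are not said to pair the samples, and deviations of same-numbered libraries correlated at -0.13; a crossed replicate block, added after seeing the data, called 483 and 2. Leaving out 1 library gave 44 to 1358 genes and 0 to 11 members; without DMSO replicate 1 there were 1285 and 3, and without DMSO replicate 2 there were 1358 and 11, while without NEDD8i replicate 1 or 2 members called were 0. Library sizes without TMM moved the median of all genes to -0.22 and that of members to -0.76, or -0.54 relative to all genes. Leaving out 1 library, the median log2 fold change ran from -0.93 to 0.15 for all members, from -0.62 to 0.17 for follicle stem cell genes, from -0.83 to -0.013 for Notch genes and from -2.87 to 0.82 for Wnt genes, each upper value being that without DMSO replicate 1. Each lower value is that without DMSO replicate 2, where the read filter let in more genes. It covers 34 members against 31, 9 Notch genes against 8 and 4 Wnt genes against 3, so part of each such range is a change of genes. With no filter the Wnt median was -2.86, since 3 more genes seen mainly in DMSO replicate 1 entered. Of the 31 tested members 9 changed sign without DMSO replicate 1, namely Tcf7l1 (0.58), Krt75 (0.20), Lrig1 (0.44), Id2 (0.70), Jag1 (0.27; range over left-out libraries -0.56 to 0.27), Hes1 (0.13; -0.91 to 0.13), Wif1 (0.82; -1.70 to 0.82), Ptch1 (0.30) and Lef1 (5.85, against a DMSO library with 0 reads; -4.04 to 5.85). Jag1 also did so without NEDD8i replicate 1 (0.13). Causes of these differences were not tested.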
